A study of Homo sapiens with 4 samples.

Results

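S100 proteins are small cytosolic calcium sensors that act as dimers, and annexins are proteins that bind membrane phospholipids when calcium rises. Some S100 proteins pair with an annexin: S100A10 holds annexin A2 in a complex at the inner face of the plasma membrane, and S100A11 binds annexin A1. Such complexes are known for membrane repair, for vesicle traffic and, at the cell surface, for capturing plasminogen and its activators. The 10 genes described here are S100A2, S100A4, S100A6, S100A10, S100A11, S100A13, S100A14 and S100A16 with the annexin genes ANXA1 and ANXA2. They were found by symbol in a table of raw read counts, as 10 of 61487 genes. The symbols had been picked with the differences between these same libraries already known. The fold changes and calls of the 10 genes are therefore a description, given without p-values.

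The libraries came from Caki-1, an established human renal cell carcinoma line, and all carried a lentiviral construct. The shControl arm (genotype label WT, 2 libraries) received a control sequence. The shTFE3 arm (genotype label TFE3-KD, 2 libraries) received short hairpin RNA against TFE3, which belongs to the MiT/TFE transcription factors and drives lysosomal genes. All cells were replated 24 hours after infection, received puromycin at 1 µg/ml 12 hours later and underwent 3 days of selection. The number of hairpins and whether the replicates were separate infections are not stated, so p-values measure only the spread between these libraries, which may be technical. Totals were 17270180 to 17742519 counts per library. Levels are given as CPM, counts per 1000000 after TMM scaling. A total of 3 counts, used as the limit of detection for counting error only, was worth 0.167 to 0.176 CPM.

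TFE3 itself stood at 131 and 128 CPM in shControl and at 70.1 and 66.9 CPM in shTFE3, which left 52.9% of the control level (log2 fold change -0.92, SE 0.0624, edgeR adjusted p 5.6e-11). Of 8 renal and epithelial marker genes, 6 were tested and 1 was called, KRT18 (-0.28, adjusted p 0.0019; 0.0806 and 0.0679 with shTFE3 replicate 1 or 2 left out). PAX8 lay at 424 to 465 CPM and VIM at 1040 to 1185 CPM, while PAX2 and CA9 had 0 counts. Summed levels of markers of other cell types were 1.41 to 2.17 CPM for 8 leukocyte genes and 2.81 to 4.06 CPM for 4 endothelial genes, in which CD3E, TYROBP and CDH5 were at 0 counts. They were 19.1 to 20.0 CPM for 6 fibroblast genes, with LUM at 0 counts. The largest term was ITGAM (13 to 29 counts) for leukocytes and PECAM1 (48 to 68 counts) for endothelium. Among fibroblast genes, PDGFRB (193 to 232 counts) and COL1A1 (112 to 143 counts) made nearly the whole sum. CD14, a monocyte gene, had 2 counts in each shControl library against 10 and 11 in shTFE3, while PTPRC, the pan-leukocyte gene, had at most 1. The 6 keratinocyte genes summed to 43.9 to 50.2 CPM, nearly all from KRT10, with KRT1, KRT14 and IVL at 0 counts. None of the 5 tested markers of these other cell types was called.

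Each S100 protein has an EF-hand near its C terminus, which binds calcium in most of the family, and the codons of its loop are shown because they set S100A10 and S100A14 apart from the other S100 genes described. The loop has 12 codons, and those at loop positions 1, 3, 5 and 12, whose side chains hold the calcium ion in the canonical form, are in capitals. The sequences are coding sequence, 5′ to 3′, from GENCODE release 29 transcripts on GRCh38.
S100A2: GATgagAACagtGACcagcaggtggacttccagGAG
S100A4: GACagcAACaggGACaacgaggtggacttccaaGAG
S100A6: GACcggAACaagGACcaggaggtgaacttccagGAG
S100A10: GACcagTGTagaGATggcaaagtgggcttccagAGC
S100A11: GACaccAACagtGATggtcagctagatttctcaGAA
S100A13: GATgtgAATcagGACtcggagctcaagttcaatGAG
S100A14: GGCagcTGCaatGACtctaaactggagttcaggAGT
S100A16: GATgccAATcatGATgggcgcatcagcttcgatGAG
In 6 of the 8 genes the capital codons encode aspartate, asparagine, aspartate and glutamate. S100A10 has cysteine and serine codons at loop positions 3 and 12, and its protein is known for binding annexin A2 without calcium. S100A14 has glycine, cysteine and serine codons at loop positions 1, 3 and 12. Over aligned residues, the encoded proteins were 26.9% (S100A16) to 38.1% (S100A4) identical to S100A10.

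On a scale that allows genes to be compared, CPM per kilobase of the principal transcript, S100A6 stood at 957 ± 9.37 and ANXA2 at 946 ± 7.22 in shControl (SD, n = 2). Their control libraries overlapped, so these levels could not be put in order. S100A11 followed at 584 ± 0.66, S100A10 at 458 ± 0.481, ANXA1 at 194 ± 10.6 and S100A16 at 147 ± 6.79 CPM per kilobase, with no overlap between neighbours in this order. S100A13 (51.5 ± 1.82), S100A4 (32.3 ± 0.762) and S100A2 (28.1 ± 1.55 CPM per kilobase) were lower, and S100A14 was at 0.136 ± 0.0385 CPM per kilobase. In shTFE3, ANXA2 (768 ± 54.8 CPM per kilobase) lay above S100A6 (706 ± 15.5 CPM per kilobase) without overlap, and the other genes kept their places. With the summed length of all annotated exons in place of the transcript, S100A6 was still first in shControl, but ANXA2 took rank 4, ANXA1 and S100A16 changed places, and S100A2, S100A4 and S100A13 took ranks 7, 8 and 9. The order of these genes depends on the length used.

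**Figure D1:**
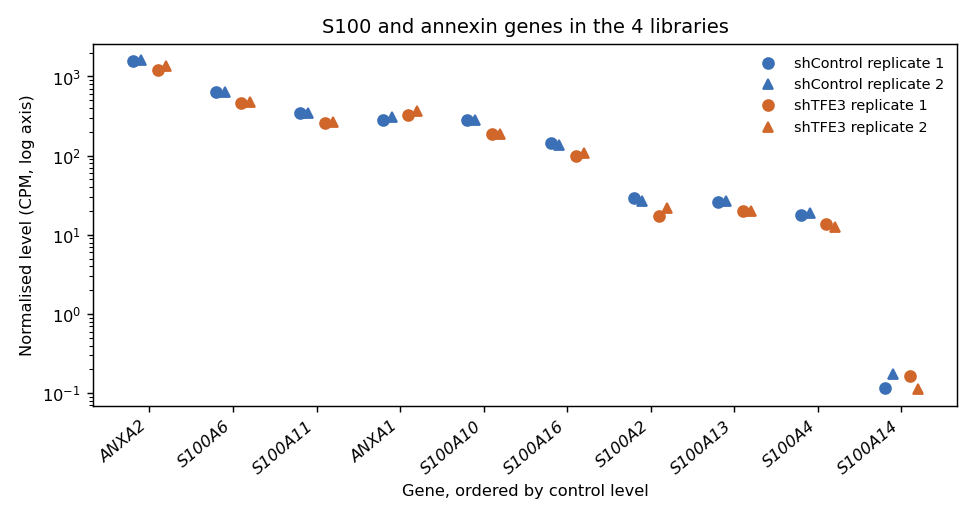
Normalised level (CPM, logarithmic axis) of the 10 genes in each library, with genes ordered by their shControl mean. Blue marks shControl and orange shTFE3, and circles and triangles are replicates 1 and 2. The shTFE3 libraries lie above the shControl libraries for ANXA1 (325 and 366 against 281 and 304 CPM), below them for 8 genes, and overlap them for S100A14 at the limit of detection.

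Of the 10 genes, 8 were called lower in shTFE3, 1 was called higher and 1, S100A14, was too low to test. Calls come from edgeR's quasi-likelihood test over 15950 genes at an adjusted p under 0.05, which called 12.9% of all tested genes lower and 10.3% higher, 23.3% in all. The arms did not overlap in CPM for any of the 9 genes tested, against 60.3% of all tested genes. Since the genes were picked on this contrast, nothing is read from these counts. All 7 S100 genes that were tested were at 66.2% to 76.0% of the control level, and none of the 10 genes changed as much as 2-fold. In bulk RNA, fewer cells with a transcript and less of it per cell cannot be told apart.

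S100A10, the partner of annexin A2, had a log2 fold change of -0.60 (SE 0.0547), which left 66.2% of the control level. It was the largest decrease of the 10 genes with all libraries in, but it differed from that of S100A2 (-0.52, SE 0.0999) by less than the standard error of S100A2, and without shTFE3 replicate 2 S100A2 was the lower (-0.68 against -0.59). The level of S100A10 was 282 CPM in both shControl libraries, against 187 and 186 CPM in shTFE3 (4806 and 4807 counts against 3359 and 3314). Replicates lay within 1 CPM of each other, and the gap between the arms was 33.6% of the control mean. S100A10 (ENSG00000197747; minus strand, GRCh38, chr1:151982915-151994390) was also the 1 gene of the 10 in the authors' deposited table of 546 changed genes, where its log2 fold change is -0.59. The smallest absolute log2 fold change in the authors' deposited table is 0.585, close to a 1.5-fold change, and the other 9 genes lay under that size or were not tested.

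ANXA2 (ENSG00000182718; minus strand, chr15:60347134-60402883) encodes annexin A2, the membrane-binding part of the complex. It was the most abundant of the 10 by CPM, at 1577 and 1594 in shControl and 1223 and 1353 in shTFE3. Both shTFE3 libraries lay below both controls, and they were further apart from each other than the controls were. The log2 fold change was -0.30 (SE 0.0549), which left 81.2% of the control level. ANXA2 was at 5.60 and 5.65 counts per S100A10 count in shControl, and at 6.54 and 7.26 in shTFE3. The messages of both partners were thus lower in shTFE3, S100A10 more so, and the ratio did not overlap between the arms.

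ANXA1 (ENSG00000135046; plus strand, chr9:73151757-73170393), the gene of annexin A1, a protein known for restraining leukocyte recruitment, was the 1 gene called higher. It was at 281 and 304 CPM in shControl and at 325 and 366 CPM in shTFE3, 118% of the control level (log2 fold change 0.24, SE 0.0609). The arms did not overlap, but the lowest shTFE3 library was closer to the highest control than the shTFE3 libraries were to each other. The call was lost without shControl replicate 1 (0.18) and without shTFE3 replicate 2 (0.15).

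S100A11 (ENSG00000163191; minus strand, chr1:152032506-152047907), which encodes the annexin A1 partner, moved the other way. Its level was 347 and 346 CPM in shControl and 260.0 and 267 CPM in shTFE3, a log2 fold change of -0.40 (SE 0.0539). The arms were far apart relative to the replicates. ANXA1 was at 0.811 and 0.877 counts per S100A11 count in shControl and at 1.25 and 1.37 in shTFE3. The annexin was thus the less counted partner in shControl and the more counted one in shTFE3, on counts not corrected for length. In mean CPM per kilobase of the principal transcript, ANXA1 stayed below S100A11 in both arms. The means were 194 against 584 in shControl and 229 against 444 in shTFE3.

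S100A6 (ENSG00000197956; minus strand, chr1:153534599-153536244) encodes calcyclin, a binding partner of CACYBP. It was at 641 and 632 CPM in shControl and 462 and 476 CPM in shTFE3 (log2 fold change -0.44, SE 0.0526). S100A16 (ENSG00000188643; minus strand, chr1:153606886-153613145), a widely expressed family member, was at 144 and 135 CPM in shControl and 100.1 and 107 CPM in shTFE3 (-0.43, SE 0.0618). The arms did not overlap for either gene, and S100A16 replicates differed more in proportion to their level. The calls of S100A6, S100A10, S100A11, S100A16 and ANXA2 held with any 1 library left out.

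The other tested S100 genes had lower counts. S100A2 (ENSG00000196754; minus strand, chr1:153561108-153567890), whose protein is known as a nuclear binder of p53, was at 29.1 and 26.9 CPM in shControl and 17.5 and 21.7 CPM in shTFE3 (log2 fold change -0.52, SE 0.0999). S100A4 (ENSG00000196154; minus strand, chr1:153543613-153550136), whose protein binds nonmuscle myosin IIA and is known from metastasis, was at 18.0 and 18.6 CPM in shControl and 13.5 and 12.7 CPM in shTFE3 (-0.48, SE 0.104). S100A13 (ENSG00000189171; minus strand, chr1:153618787-153631360), known for the release of FGF1 and IL1A without a signal peptide, was at 25.8 and 27.1 CPM in shControl and 20.1 CPM in both shTFE3 libraries (-0.40, SE 0.0899). Their sizes of change lay within the range of the abundant S100 genes, while their standard errors were larger. The call of S100A2 was lost without shTFE3 replicate 1 (-0.37) and that of S100A4 without shTFE3 replicate 2 (-0.44). S100A13 lost its call without shTFE3 replicate 1 (-0.40) and without shTFE3 replicate 2 (-0.39).

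S100A14 (ENSG00000189334; minus strand, chr1:153614255-153616986), an epithelial family member, was nearly silent, with 2 and 3 counts in the control libraries against 3 and 2 after knockdown. All libraries were at or below the limit of detection, the arms overlapped, and no fold change is given.

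Added up, the 8 S100 genes came to 1487 and 1468 CPM in shControl and 1060.2 and 1091 CPM in shTFE3, 72.8% of the control level. With ANXA1 and ANXA2 the sum was 3345 and 3366 CPM against 2608 and 2810 CPM. The 10 genes thus took 0.329% and 0.332% of all counts in shControl and 0.264% and 0.284% in shTFE3. ANXA2 was the largest term of the sum, and its shTFE3 libraries differed by more CPM than those of any other of the 10 genes.

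Some of these genes share sequence or position with others, and no source used here gives the strand setting or how multi-mapping reads were handled. ANXA2P2, a processed copy of ANXA2, held 1.13% to 1.41% as many counts as ANXA2 in each library and was lower in shTFE3 (22.2 and 18.0 against 14.4 and 16.1 CPM, adjusted p 0.00901). That call was lost without shControl replicate 1 (adjusted p 0.242) and without either shTFE3 library (0.243 and 0.138). The other 5 copies of ANXA2 or S100A11 with a row had at most 4 counts in a library. S100A13 shares 235 exonic bases with S100A1 on the opposite strand, a gene with 38 and 40 control counts against 45 and 49 after knockdown. S100A13 also shares 536 exonic bases with ENSG00000271853 on the same strand, where strand would not separate the reads. That gene held 2 and 0 control counts, against 7 and 10 after knockdown. S100A6 shares 23 exonic bases with an antisense gene of 27 to 35 counts. All 3 overlapping genes held far fewer counts than S100A6 and S100A13.

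The region before each start site is shown for the pair of annexin A2 and S100A10, for ANXA1, which moved the other way, and for S100A2, which shares a motif with ANXA2. RefSeq (GRCh38.p14) gave 14 promoter windows of 300 bases for all 10 genes. The sequences below are the 170 bases before the start, 5′ to 3′ on the strand of the gene, with motif matches in capitals. They lie at chr1:151993860-151994029 (S100A10, minus strand), chr15:60397987-60398156 (ANXA2, minus), chr1:153565845-153566014 (S100A2, minus) and chr9:73151695-73151864 (ANXA1, plus).
S100A10: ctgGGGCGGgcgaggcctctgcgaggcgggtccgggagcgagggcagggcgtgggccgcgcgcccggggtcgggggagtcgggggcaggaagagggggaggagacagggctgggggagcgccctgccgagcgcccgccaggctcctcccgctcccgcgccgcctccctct
ANXA2: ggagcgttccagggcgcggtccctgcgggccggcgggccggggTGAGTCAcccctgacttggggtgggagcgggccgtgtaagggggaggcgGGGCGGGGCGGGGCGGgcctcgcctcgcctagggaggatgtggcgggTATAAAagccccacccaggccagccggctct
S100A2: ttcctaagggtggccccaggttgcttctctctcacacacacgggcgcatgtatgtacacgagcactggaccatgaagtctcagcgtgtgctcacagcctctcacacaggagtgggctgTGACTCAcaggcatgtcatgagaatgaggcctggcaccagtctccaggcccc
ANXA1: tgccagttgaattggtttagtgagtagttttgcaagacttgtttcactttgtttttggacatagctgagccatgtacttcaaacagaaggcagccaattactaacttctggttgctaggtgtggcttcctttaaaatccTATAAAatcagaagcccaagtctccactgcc
The motifs were searched on both strands. CACGTG, the E-box core, was in 0 of the 14 windows and in 7.26% of 35116 RefSeq windows of the same length. TCACGTGA, a longer form that contains CACGTG and is bound by MiT/TFE factors, was in 0 of 14 and in 0.98% of all windows. That says only that these letters are not in these windows. TGANTCA, the AP-1 site, was in the windows of S100A2 (first base at -52) and ANXA2 (-127), against 7.71% of all windows. TATAAA was in 1 window each of S100A4, S100A13, ANXA1 and ANXA2, between -31 and -29, and in 11.5% of all windows. GGGCGG, the GC box, was in 6 of the 14 windows and in 45.0% of all. ANXA1, which rose, and ANXA2 and S100A4, which fell, all have TATAAA at -31, and a match is a description, not a bound site.

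In the rest of the S100 family, 13 genes outside the 10, 2 were tested. S100A3, known from hair cuticle, fell to 51.5% of control, from 11.3 and 10.5 CPM to 5.68 and 5.56 CPM (log2 fold change -0.96, SE 0.136, edgeR adjusted p 8.95e-06). The arms did not overlap, and the decrease was larger than that of any of the 10 genes. S100A1, known from heart muscle, was at 0.20 (SE 0.224, adjusted p 0.58) and was not called. S100A8, S100A9 and S100A12, the calgranulins of myeloid cells, were at 0 counts in every library, as were S100B, S100G, S100Z, S100A7A and S100A7L2. S100A5, S100A7 and S100P were too low to test. In all, 8 of 9 tested S100 genes were lower and 0 higher, against 12.9% and 10.3% of all tested genes. Their median log2 fold change was -0.44, against 0.0015 over all tested genes. Of these 9 S100 genes, 7 had been picked on the contrast.

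Of the 11 annexins outside the 10 genes, 8 were tested, 5 fell and 0 rose, with a median log2 fold change of -0.31. Of all tested genes, 12.9% were called lower and 10.3% higher. ANXA3 fell furthest, from 33.4 and 28.9 CPM to 11.1 and 12.0 CPM, 37.1% of control (-1.43, SE 0.102, adjusted p 1.37e-10). ANXA13, an annexin of intestinal and renal epithelium, fell from 5.28 and 6.16 CPM to 2.73 and 2.59 CPM (-1.10, SE 0.186, adjusted p 7.69e-05). Both decreases were larger than that of ANXA2, and both genes had lower levels than ANXA2.

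ANXA5, known for binding phosphatidylserine, fell from 768 and 769 CPM to 595 and 621 CPM (-0.34, SE 0.0524, adjusted p 2.68e-05). ANXA4, of epithelial apical membranes, fell from 362 and 387 CPM to 301 and 277 CPM (-0.37, SE 0.0577, adjusted p 2.65e-05). ANXA6, the large annexin with a doubled core, fell from 371 and 365 CPM to 286 and 316 CPM (-0.29, SE 0.0571, adjusted p 0.000486). These abundant annexins changed by about as much as ANXA2. ANXA7 (0.02, adjusted p 0.855), ANXA9 (0.02, 0.961) and ANXA11 (-0.13, 0.0983) were not called, while ANXA8 and ANXA8L1 had 0 counts and ANXA10 was too low to test. Without shTFE3 replicate 2, the calls of ANXA4 and ANXA13 were lost (adjusted p 0.0505 for both). Without shTFE3 replicate 1, that of ANXA6 was lost (adjusted p 0.0527). ANXA1 was the 1 annexin of 10 tested that was called higher, and this difference in direction from other annexins was not tested. S100A3, ANXA3 and ANXA13 are in the authors' deposited table, with log2 fold changes of -0.96, -1.43 and -1.11.

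**Figure D2:**
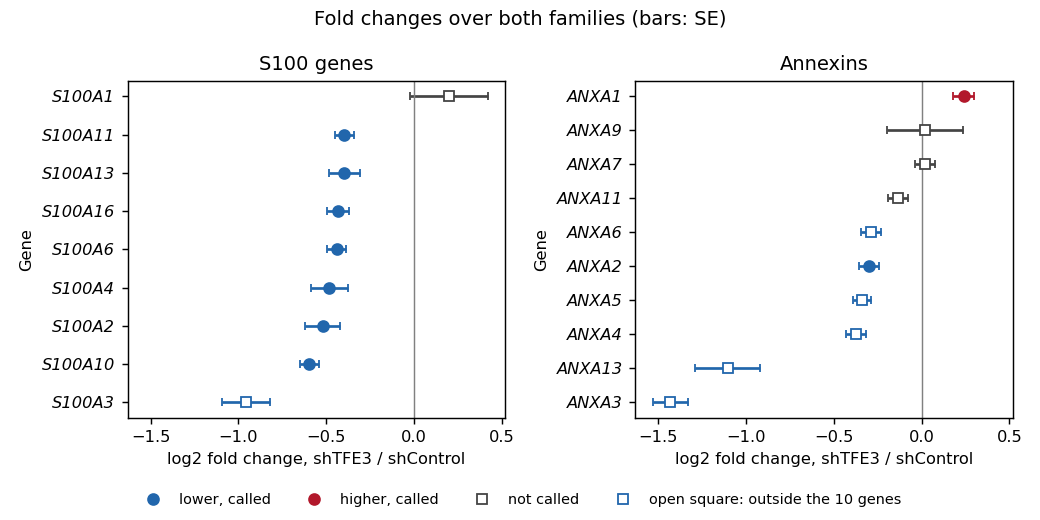
Log2 fold change (shTFE3 against shControl) with its standard error for every tested S100 gene and annexin. Filled circles are among the 10 genes and open squares are not, with blue for called lower, red for called higher and grey for not called. ANXA3 (-1.43), ANXA13 (-1.10) and S100A3 (-0.96) lie furthest left, and ANXA1 (0.24) is the 1 gene in red.

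Most S100 genes lie in a cluster on chromosome 1q21. From S100A10 to S100A1 (chr1:151982915-153632039, 1.65 Mb) the annotation has 17 S100 genes, of which 9 were tested. The 8 that were called lower are on the minus strand, and S100A1, which was not called, is on the plus strand. Of the 6 other tested genes in this window, among them TCHH, HRNR and FLG, 0 were called by edgeR (lowest adjusted p 0.394), and 0 had an unadjusted p under 0.05. Those 6 genes had means of at most 81.5 counts, which gives less precision than for the S100 genes that were called. Their signs were mixed. ENSG00000285867 (-0.51, SE 0.394) and ENSG00000238279 (-0.21, SE 0.262) were negative, while FLG-AS1 (0.15, SE 0.224), TCHH, FLG and HRNR were positive. TCHH (0.26, SE 0.274), FLG (0.14, SE 0.173) and HRNR (0.21, SE 0.356), whose proteins carry an S100-type domain fused to a long repeat, were the 3 tested of 7 fused S100 genes.

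Genes that work with these proteins were sorted by role. Over all tested genes the median log2 fold change was 0.0015, and 12.9% were called lower and 10.3% higher. The lists were chosen with earlier results of these data known, so their counts and medians are a description. The plasminogen system, which the surface complex of S100A10 and annexin A2 serves as a receptor, had 7 of 9 genes tested, with 6 lower, 0 higher and a median of -0.47. PLAU, which encodes the activator urokinase, fell from 208 and 203 CPM to 127 and 131 CPM (-0.68, SE 0.0571, adjusted p 2.27e-09). SERPINE2, which encodes a protease inhibitor, fell from 303 and 304 CPM to 211 and 229 CPM (-0.47, SE 0.0567, adjusted p 9.92e-07). An activator gene and an inhibitor gene were thus both lower, and the arms overlapped for neither.

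PLAT, which encodes tissue plasminogen activator (-0.43, adjusted p 0.00761), PLAUR, the urokinase receptor gene (-0.31, 0.0145), and SERPINF2, the antiplasmin gene (-1.56, 0.000177), were also called lower. PLGRKT, another plasminogen receptor gene, was not called (-0.04, adjusted p 0.861), and PLG itself had 0 counts. The count of 6 was 3 without shTFE3 replicate 1 and 3 without shTFE3 replicate 2, where SERPINF2 (adjusted p 0.0889 and 0.077), PLAT (0.172 and 0.115) and PLAUR (0.21 and 0.098) were lost. PLAT was also lost without shControl replicate 1 (0.168), and PLAUR without shControl replicate 2 (0.183). DESeq2 called neither PLAT (adjusted p 0.12) nor PLAUR (0.139), which left 4.

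Of 16 membrane repair genes, 14 were tested, 7 fell and 0 rose, with a median of -0.15. Of all tested genes, 12.9% were called lower and 10.3% higher. AHNAK2, a giant scaffold protein gene, fell from 351 and 327 CPM to 177 and 165 CPM (-0.99, SE 0.0585, adjusted p 4.08e-12). MYOF, the gene of myoferlin, which joins membranes (-0.38, adjusted p 4.35e-06), CAPN2 (-0.35, 2e-05) and CAPNS1 (-0.32, 0.000155), which encode calpain subunits, also fell. EHD2, of caveolar necks (-0.24, 0.00168), and DYSF, the dysferlin gene (-0.95, 0.00697, at 1.17 to 2.88 CPM), were lower as well, as was CAPN1 (-0.19, 0.0126, outside the rule of 6 genes named by list). CAV1 (-0.06, 0.447) and CAVIN1 (-0.11, 0.153), the structural genes of caveolae, were not called. The count of 7 was 4 without shTFE3 replicate 1 and 4 without shTFE3 replicate 2, where CAPN1 (adjusted p 0.126 and 0.0619), EHD2 (0.0674 and 0.0687) and DYSF (0.132 and 0.051) were lost. Without shControl replicate 1, CAPN1 (0.132) and EHD2 (0.0867) were lost, and without shControl replicate 2, CAPN1 (0.0606). DESeq2 did not call DYSF (0.175).

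Of 9 other partners of the S100A10 and annexin A2 complex, 4 were tested. HLTF rose (0.34, adjusted p 0.000709), and 3 were not called, with a median of 0.04. AHNAK, the scaffold bound by the complex, was at 2667 and 2562 CPM in shControl and 2570 and 2329 CPM in shTFE3, with overlap (-0.09, adjusted p 0.234), and DLC1 was at 0.02 (adjusted p 0.822). With shTFE3 replicate 1 or 2 left out, HLTF lost its call (adjusted p 0.0664 and 0.0685). Of 10 tested targets of S100 proteins, MDM2, which S100 proteins bind beside p53, rose (0.34, adjusted p 0.000175), and PPFIBP1, the liprin bound by S100A4, fell (-0.21, 0.0142). The other 8 were not called, and the median was -0.02. MYH9, the myosin IIA chain bound by S100A4 (-0.0043, adjusted p 0.969), and CACYBP, the partner of S100A6 (-0.04, 0.698), were among them. PPFIBP1 lost its call when any 1 of the 4 libraries was left out (adjusted p 0.0796 to 0.116), and MDM2 without shTFE3 replicate 1 (0.0645).

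Receptors of secreted S100 proteins and of annexin A1 were low, apart from BSG (0.15, adjusted p 0.0619). TLR4 fell (-0.90, adjusted p 0.0336) at 1.01 to 2.47 CPM, AGER was not called (0.51, 0.117), and FPR2 and FPR3, receptors of annexin A1, had 0 counts. The median of the 3 tested was 0.15. The TLR4 call was lost without shControl replicate 2 (0.473), shTFE3 replicate 1 (0.205) or shTFE3 replicate 2 (0.266). Of 13 tested EF-hand genes outside the S100 family, 4 fell and 0 rose, against 12.9% and 10.3% of all tested genes. Their median was -0.05. The 4 that fell were CALM3, 1 of the calmodulin genes (-0.23, adjusted p 0.00582), RCN1 (-0.19, 0.0163), GCA (-0.31, 0.018) and EFHD2 (-0.20, 0.0325). CALU (0.06, 0.478) and CALM2 (-0.06, 0.451) were not called. With shControl replicate 1 or 2 left out, this count was 2 or 1, and with shTFE3 replicate 1 or 2 left out it was 0 or 2. Beside TFE3, its relative MITF was lower (-0.39, adjusted p 0.00389; 0.221 without shTFE3 replicate 2), and TFEB was not called (-0.21, 0.30).

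**Figure D3:**
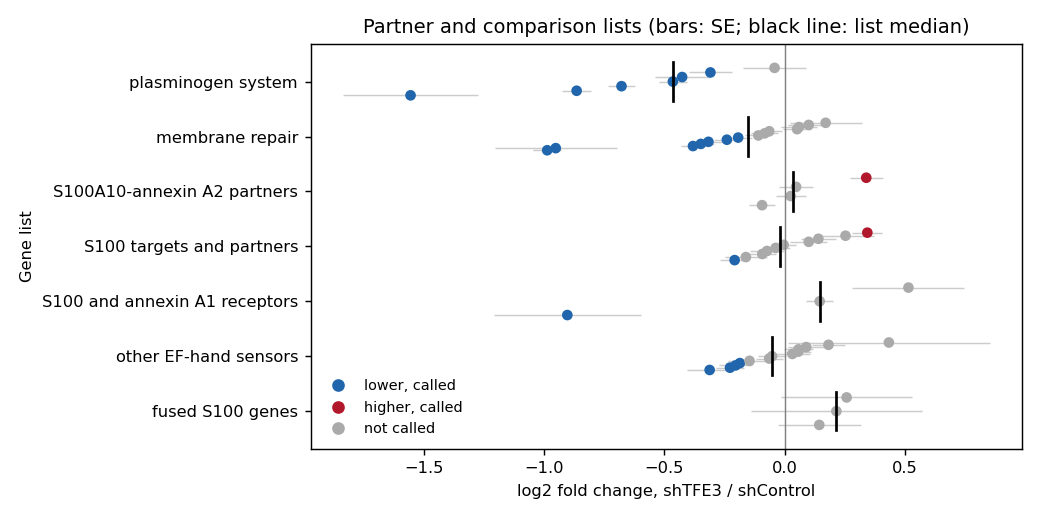
Log2 fold change (shTFE3 against shControl) with its standard error for the tested genes of each partner list, with the list median as a black line. Blue marks genes called lower, red called higher and grey not called. The lists were chosen with earlier results of these data known. Medians lie at -0.47 for the plasminogen system and -0.15 for membrane repair, against -0.02 for S100 targets and 0.04 for other partners of S100A10 and annexin A2.

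Under 12 other settings of normalization, filter, test and libraries, no fold change of the 10 genes changed sign. S100A10 stayed between -0.61 and -0.56 and S100A11 between -0.42 and -0.36, while S100A2 ranged from -0.68 to -0.37, ANXA2 from -0.38 to -0.23 and ANXA1 from 0.15 to 0.32. S100A6, S100A10 and S100A11 kept their calls in all 12.

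**Figure D4:**
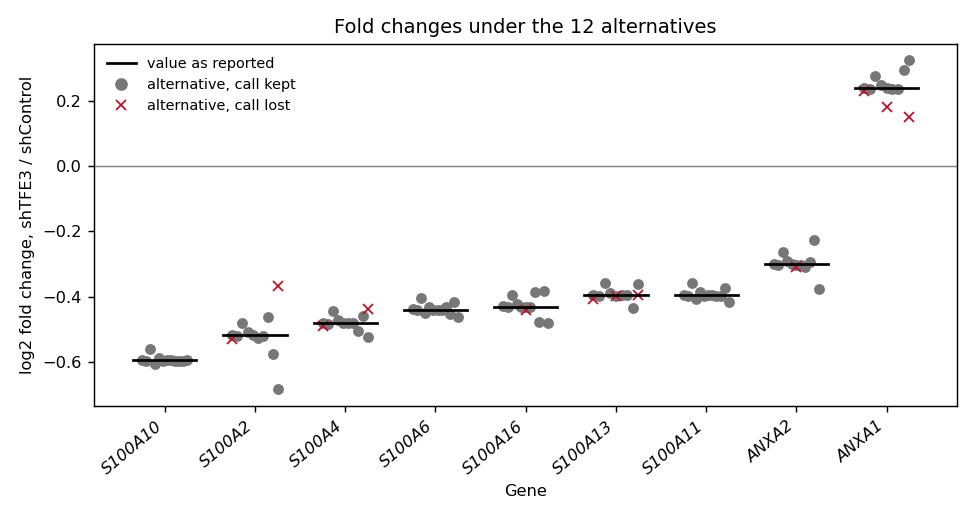
Log2 fold change of the 9 tested genes under 12 alternative settings, with the reported value as a black line. Grey dots kept the call and red crosses lost it. S100A6, S100A10 and S100A11 show no cross, S100A13 and ANXA1 show 3 each, and S100A2 has the widest spread (-0.68 to -0.37).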

How the data were processed

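Poly(A) RNA of Caki-1 cells was read as 150-base pairs, with 2 libraries per arm. The authors deposited raw counts for each Ensembl gene. The submitters' processing notes name hg38, Trim Galore, STAR, featureCounts and DESeq2 and no versions. Annotation, strand setting and multi-mapping were not given in any source used here. A second table that the authors deposited holds their comparison for selected genes: mean normalized signal, log2 fold changes, their errors, test scores and p-values.

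Symbols came from a gene name table (61415 of 61533 identifiers) or GENCODE 29 (105), and 13 had none. The 46 second pseudoautosomal copies, all at 0 counts, were left out. Coordinates are from GENCODE 29 on GRCh38. Groups come from the sample labels. Replicate counts gave a chi-square per degree of freedom of 1.62 (shControl) and 2.44 (shTFE3), above sampling noise.

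Counts were tested with edgeR 4.0.16 (R 4.3.3) over all 4 libraries: TMM factors, filterByExpr by group, quasi-likelihood test, Benjamini-Hochberg adjustment at 0.05. The filter left 15950 genes with 99.8% of counts. The common estimate by edgeR of replicate variation beyond counting noise, 1 value for all genes, was 4.16% (coefficient of variation). The fit had 2 residual and 22.4 prior degrees of freedom. SE is the absolute log2 fold change divided by the root of the test statistic. On simulated data, the procedure recovered 18 of 50 genes changed 1.25-fold and 38 of 50 changed 1.5-fold. It recovered 40 of 50 at 2-fold and 47 of 50 at 4-fold, and called 2 of 15750 unchanged genes. Small changes can thus go uncalled. The simulated counts used the trend of replicate spread that edgeR had fitted, without differences in spread between genes of similar level. Far fewer genes were changed there than were called in these data, so these shares may not carry over. Alternatives were other scaling, filters, DESeq2 1.42.0, limma-voom (3.58.1), a replicate term and each library left out. EF-hand loops were found and proteins aligned with Biopython 1.88.

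Named beside the 10 genes are TFE3, every other tested S100 gene or annexin and, per list, at most 6 called genes with the smallest p and up to 2 uncalled ones with the highest mean count. Others named were chosen after their values were seen, and 1 gene that the rule gives is not reported here. The 10 genes and the lists were chosen with earlier results of these data known. Chromatin data mentioned by the series were not analysed here.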

Additional observations from a re-analysis of the deposited data

How the results depend on the processing

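All signs of the 10 genes held under the 12 alternatives. With no filter on low counts, edgeR's prior degrees of freedom fell to 2.09 from 22.4, and the calls fell from 3709 to 384 over all genes, from 9 to 3 among the 10 genes (8 to 3 lower, 1 to 0 higher), from 8 to 4 in the S100 family, from 7 to 2 in the annexins and from 25 to 6 in the partner and comparison lists. DESeq2 called 1959 genes in all and kept the calls of the 10 genes (9), the S100 family (8) and the annexins (7), but called 18 in the lists. It lost PLAT (adjusted p 0.12), PLAUR (0.139), PPFIBP1 (0.0565), TLR4 (0.331), DYSF (0.175), GCA (0.185), EFHD2 (0.112) and ANXA2P2 (0.112) and gained VIM (0.0434). Scaling by library totals lost EFHD2 (0.0809) and RCN1 (0.0528) and gained BSG (0.0188), RCN2 (0.0253) and VIM (0.0141). The last 3 were also called with the filter at 50 counts (0.0394, 0.0436 and 0.0376). limma-voom lost TLR4 (0.0525) and gained VIM (0.0338). Leaving out 1 library gave 1043 to 2514 calls over all genes, 6 to 9 among the 10 genes (6 to 8 lower, 0 to 1 higher), 6 to 8 in the S100 family, 4 to 7 in the annexins and 9 to 19 in the lists. These fits had 1 residual degree of freedom and prior degrees of freedom of infinity, 452, 4.25 and 3.98 in turn (shControl replicates 1 and 2, shTFE3 replicates 1 and 2), so the counts are not on equal terms. The lone library of an arm is assumed there to vary like the others. A replicate block gave 3558 calls over all genes and 9 among the 10 genes, and changed no call of the 88 genes compared. That fit also had 1 residual degree of freedom and prior degrees of freedom of infinity, so its counts are not on equal terms either. The deviations of same-numbered libraries had a correlation of -0.0957 over 10914 genes whose mean reached 100 counts, so no large shared deviation was seen. Counting noise enters these deviations, so the correlation cannot tell whether same-numbered libraries were prepared together. Scaling by library totals moved the median of all genes by 0.04 on the log2 scale. Depth limits S100A14, S100A5 and ANXA10, whose counts were at most 10 in a library.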
